A study of Caenorhabditis elegans with 8 samples.

Results

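The wildtype N2 transcriptome was read from the red (Cy5) channel of 8 two-colour Agilent *C. elegans* arrays, which is 8 of the 16 channels in the series. N2 is the Bristol laboratory strain that serves as the wildtype reference for *C. elegans*. The green (Cy3) channel of the same arrays held RNA of a strain carrying *age-1(mg44)*, a null allele of the worm PI3K catalytic subunit. On 2 arrays it was *age-1(mg44)* adults, zygotic homozygotes whose heterozygous SP75 mothers (*sqt-1(sc13) age-1(mg44)/mnC1*) had supplied *age-1*. The remaining arrays carried strains in which *sqt-1(sc13) age-1(mg44)* was combined with a transgene: *bvIs1* on 3 arrays, which restricts *age-1* to the intestine (CY262), and *bvIs2* on 3 arrays, which restricts it to neurons (CY251). All red channels carry the same description: wildtype hermaphrodites, young adults, kept for 72 h at 20°C after synchronization as first-stage larvae. The growth notes describe the harvest as between the last larval stage and young adulthood. The methods place the wildtype controls at a stage similar to, or slightly later than, that of the strains. They do not say on which arrays.

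Each red channel is named here by the strain on its array and by the replicate number in the labels. There were 2 channels of replicate 3, 3 of replicate 2 and 3 of replicate 1. The methods give 3 biological replicates of N2, so the 8 channels may hold fewer than 8 separate RNAs, and the labels do not say which channels share one. A p-value across these channels therefore measures the spread between channels, which may be technical. The dyes were not swapped. The file names of the CY262 and CY251 arrays of replicate 2 each give the other strain. The deposited value table places 4 arrays under another sample. All red channels are wildtype under every assignment, so only the numbers and partners of those channels are in doubt.

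A young adult hermaphrodite is largely a reproductive animal. Its intestine makes yolk proteins, which oocytes take up, its gonad fills with oocytes and stored sperm, and its epidermis has just finished the last molt. Transcripts of these tissues change within hours at the end of larval development. Receptors of chemosensory neurons, by contrast, are often made in single pairs of cells of the whole animal.

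Signal was taken as the mean red intensity of a spot, corrected for local background, on a log2 scale that was quantile-scaled over the 8 red channels. It was summarised by the brightest probe of each gene for 18877 genes. On this scale the scanner's ceiling lay at 15.99. Probes differ in how well they hybridize. For the 823 genes with several probes, the brightest and the dimmest probe of a gene differed by a median of 1.24 log2, and by at least 1 log2 for 58.1% of these genes. Brightness was therefore used to sort spots into saturated, detected and undetected classes, and to compare 1 gene between channels, but not to rank transcripts.

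The 8 red channels were alike in local background but not in every measure of quality. By the scanner software's own test, 86.7% to 92.8% of the 21482 spots of a channel exceeded background clearly, which is the meaning of "well above background" and "detected" here. Raw median signal was 524 to 653, local background was 342 to 360, and 98 to 133 red spots per channel were saturated. Raw median signal was 615 to 653 in the replicate 1 channels, above all other channels. After background correction the median was 311 to 345 in replicate 1 and 227 to 284 in the other channels. Outlier spots numbered 161, 89 and 32 in the *age-1(mg44)*, CY262 and CY251 channels of replicate 1. There were 69 in CY262 replicate 2 and 12 to 16 in each remaining channel. For 120 probes printed 10 times on each array, the median SD among the copies on 1 array was 0.18 log2.

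Wildtype channels grouped by replicate number, and no grouping by the recorded strain on the same array was found. No gene of 18875 passed the limma F test across the 3 partner strains (adjusted p under 0.05, 0% called), where 165 genes had an unadjusted p under 0.05. Across the 3 replicate numbers, 8683 of 18875 genes passed it, which is 46.0% of all genes, and 9859 had an unadjusted p under 0.05. When arrays took their samples from the value table, 5061 genes passed it. With the replicate number as a block, the partner test still called 0 genes, with 1039 at an unadjusted p under 0.05. Without the block, differences between numbers enter the error of the partner test, so it could call few genes. The block was run with the recorded strains only.

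The same grouping was seen when each channel was expressed as its deviation from the mean of each gene. Over 18555 genes, these deviations correlated at 0.59 to 0.85 for the 7 pairs of channels with the same number. Between replicate 3 and replicate 2 the correlations were 0.15 to 0.31 (6 pairs), between replicate 3 and replicate 1 they were -0.57 to -0.50 (6 pairs), and between replicate 2 and replicate 1 they were -0.84 to -0.66 (9 pairs). Each of the 8 channels correlated best with another channel of its own number. Genes are not independent replicates, and deviations from a shared mean must be negative on balance, so these values describe the channels and carry no test. The absolute signals of any pair of channels correlated at 0.96 or above.

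**Figure D1:**
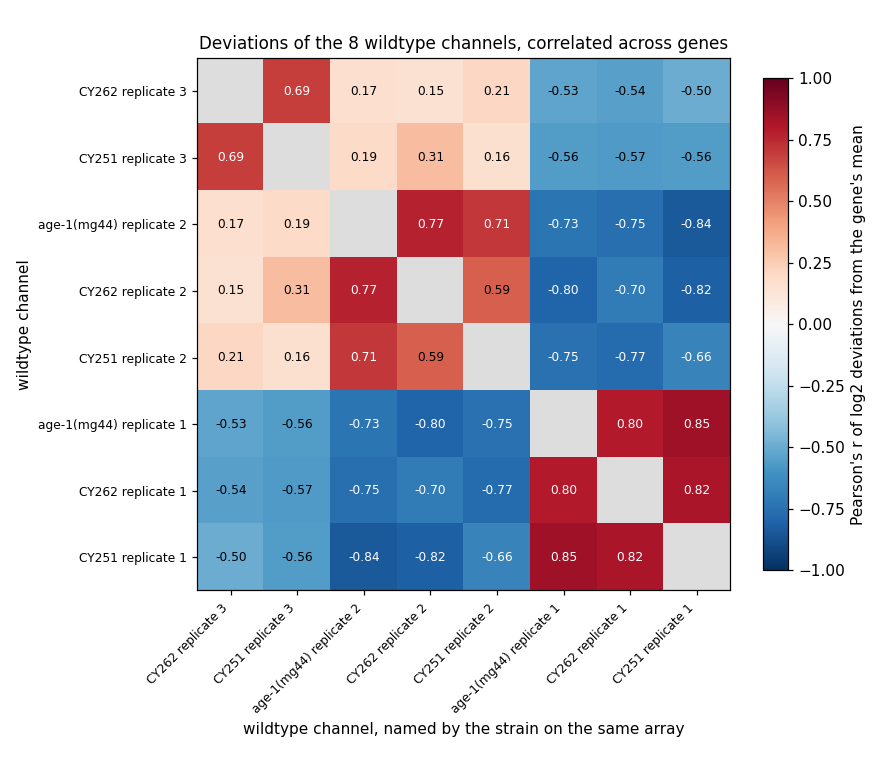
Pearson's r between wildtype channels, computed across 18555 genes on the log2 deviation of each channel from the gene's mean; rows and columns are the 8 channels, named by partner strain and replicate number. The 3 blocks of the same number hold 0.59 to 0.85, and the cells that pair replicate 2 with replicate 1 hold -0.84 to -0.66.

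The size of the differences between numbers was modest for most genes. The median SD of a gene was 0.20 log2 over all 8 channels and 0.11 within replicate numbers. An SD of at least 1 was found for 215 genes, 1.14% of 18877, and for 99 to 411 under other background corrections and scalings. The channels of replicate 2 and replicate 1 did not overlap for 9646 genes, 51.1% of all genes. Of the 8683 genes that passed the test, 4473 (23.7% of those tested) were higher and 4210 (22.3%) lower in replicate 2 than in replicate 1. The test was across all 3 numbers. A direction, here and in the lists below, is only the sign of a difference that was not tested alone and can be small. Against the same channels of replicate 1, replicate 3 was higher for 4414 (23.4%) and lower for 4269 (22.6%). The difference between replicate 2 and replicate 1 had the same sign in all 3 partner strains for 8111 of the 8683, or 93.4%.

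The balance of directions depends on the scaling. Of the genes past the threshold, 51.5% were higher in replicate 2 than in replicate 1 after quantile scaling. Division of the raw signal by the array mean without background subtraction gave 71.5% (7535 higher and 3010 lower). That scaling moved the median of all genes by 0.16 log2 for replicate 2 and by 0.16 log2 for replicate 3, both against replicate 1, compared with 0.04 and 0.02 after quantile scaling.

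Replicate 1 held the extremes. Among the genes past the threshold, the replicate 3 mean was between the other 2 means for 4943 and highest for 1990. The replicate 2 mean was highest for 3013 and lowest for 3049, and the replicate 1 mean was highest for 3680 and lowest for 3884. Detection of a difference also rose with signal. Of 778 genes with a mean signal under 6 log2, 1.03% passed the test, against 80.8% of the 1315 genes from 12 to 14 log2. The share was 69.6% for the 3566 genes from 10 to 12 log2. From 14 to 16 log2, where spots approach the ceiling, the share was 65.3%. The share of all genes, given below beside each list, is not matched to the signal of that list.

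Most genes of the array gave a signal in wildtype adults. Of 18877 genes, 15863 (84.0%) were well above background in all 8 red channels and 1063 (5.63%) in none. The class of undetected genes depends on the detection rule, with 92 genes detected in no channel by the software's test of positive signal and 52 against the negative control spots. At the other end, 135 genes (0.715%) were saturated in at least 1 red channel, and 73 of these in all 8. A saturated spot gives only a lower bound, so the saturated genes have no order among them.

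The 73 genes saturated in every wildtype channel were mostly those of protein synthesis and of yolk. They included 33 of the 77 listed ribosomal protein genes, among them *rps-14* and *rpl-13*. A further 16 ribosomal protein genes were saturated in some channels, for 49 in all, or 63.6% of the list. The list left out *rplp-0*, *rplp-1*, *rplp-2.1*, *rps-27A* and *ubq-2*, which also encode ribosomal proteins or ribosomal fusion proteins and were saturated in all 8 channels. Of 11 translation factor genes, 7 were saturated throughout: *eef-1A.1* and *eef-1A.2*, which deliver aminoacyl-tRNA, *eef-1B.1*, *eef-1B.2* and *eef-1G*, which recharge them, *eef-2*, the translocase, and *iff-1*, the germline eIF5A. Probes of near-identical copies such as *eef-1A.1* and *eef-1A.2* may share transcripts, so their classes are not independent.

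All 6 yolk protein genes, *vit-1* to *vit-6*, were saturated in all 8 channels, including both channels of replicate 3 and all 3 of replicates 2 and 1. The wildtype channels therefore hold no information on differences in yolk transcripts. The *vit* genes are also highly similar to each other. Saturation throughout was further seen for *asp-1*, an intestinal aspartyl protease, *far-2*, a fatty acid and retinol binding protein, *ilys-5*, an invertebrate-type lysozyme, *clec-87*, a C-type lectin, and *tba-2*, an alpha tubulin. Of 167 cuticle collagen genes, 5 were saturated in every channel (*col-36*, *col-63*, *col-106*, *col-122* and *col-143*) and 13 (7.78%) in at least 1.

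Saturation itself differed by number for some genes. Of the 62 genes saturated in some but not all channels, 3 were saturated in every replicate 2 channel and in no other: *perm-2*, of the eggshell permeability barrier, *cyn-7*, a cyclophilin, and *ant-1.1*, the mitochondrial ADP/ATP carrier. Another 2, the collagens *col-42* and *col-105*, were saturated in both replicate 3 channels alone. Another 15 were saturated in all 3 replicate 1 channels alone, among them *cpr-6* and *cpz-1*, which encode cathepsin-type proteases, and *ttr-15*, of the transthyretin-related family.

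**Figure D2:**
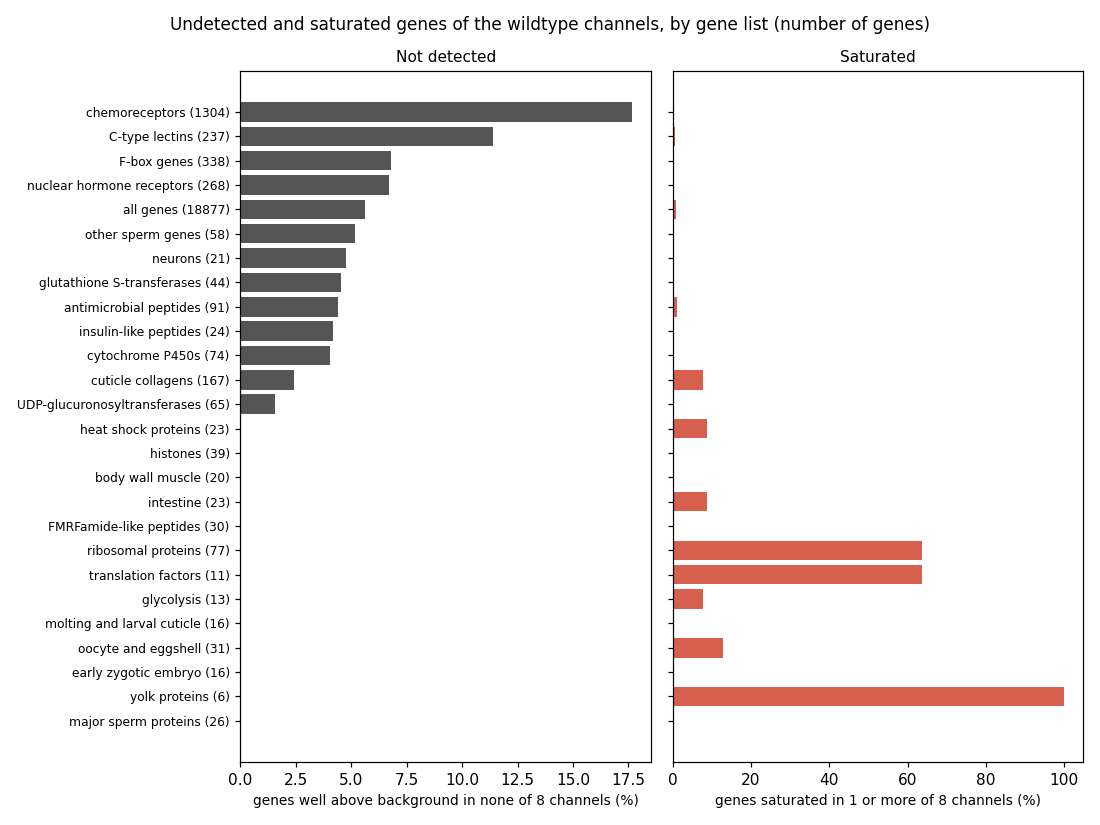
Bars give, for each gene list and for all genes (number of genes in parentheses), the percentage not well above background in any wildtype channel (left) and saturated in at least 1 (right). Chemoreceptors lead on the left with 17.6%, against 5.63% of all genes, and on the right ribosomal proteins and translation factors reach 63.6% and yolk proteins 100%.

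Chemoreceptor genes made up the largest block of undetected transcripts. These G protein-coupled receptors of the *sr* and *str* families detect odours and tastes, and 230 of 1304 (17.6%) were well above background in no wildtype channel, against 5.63% of all genes. By family, these were 9 of 25 *srab*, 10 of 34 *sra*, 15 of 54 *sre*, 30 of 119 *srw*, 39 of 214 *srh* and 31 of 188 *str* genes. Only 56.7% of chemoreceptors were detected in all 8 channels, against 84.0% of all genes. The median signal of the chemoreceptors was 6.52 log2, beside 8.16 for all genes. The member with the highest mean signal, *srh-211*, had 12.11 and 12.19 in replicate 3, 12.13, 11.46 and 12.14 in replicate 2 and 11.41, 11.65 and 11.41 in replicate 1. The undetected *str-183* had 5.66 to 5.76 throughout.

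The shares of other large families lay between those values or close to that of all genes. None of the red channels detected 27 of 237 C-type lectin genes (11.4%), 23 of 338 F-box genes (6.80%) or 18 of 268 nuclear hormone receptor genes (6.72%). C-type lectins are secreted sugar-binding proteins with roles in defence, F-box proteins choose substrates for ubiquitin ligases, and nuclear hormone receptors are ligand-regulated transcription factors. Genes with a symbol of letters and a number were undetected in 525 of 10892 cases (4.82%), and genes known mainly by other identifiers in 538 of 7985 (6.74%). In bulk RNA, few cells with a transcript and little of it per cell cannot be told apart.

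Most tissue markers were detected, as were most genes. All 31 oocyte and eggshell genes and all 23 intestinal genes were well above background in all 8 red channels, beside 84.0% of all genes. So were 17 of 20 muscle genes and 19 of 21 neuronal genes. The same held for 15 of 16 molting genes and 15 of 16 genes listed for the early zygotic embryo. These shares were near that of all genes. The neuronal gene *rgef-1*, for a Ras guanine nucleotide exchange factor found throughout the nervous system, was detected in no channel, at 6.05 and 5.96 in replicate 3, 6.17, 6.03 and 6.05 in replicate 2 and 5.95, 5.97 and 5.97 in replicate 1. Of 26 genes for major sperm proteins 25 were detected in all red channels, but their red signal moved with the green strain signal of the same spots, and how much of it is wildtype transcript was not tested. Detection at this rate does not set the labelled stage apart from others.

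Of the 1063 genes undetected in the wildtype channels, 744 were also undetected in the green channel of every array. A further 68 were well above background in the green channel of all 8 arrays. In the other direction, of 1016 genes undetected in green, 9 were detected in all 8 red channels. The *ssp-19* gene, of a family of small major sperm protein-like proteins, is one of the 68. In the strains its green signal was 7.58 and 9.17 in replicate 3, 7.70, 8.82 and 8.38 in replicate 2 and 7.46, 8.12 and 8.76 in replicate 1, and its wildtype signal on the same spots was 5.88 to 6.08. Another of the 68 is F54D1.1, with 7.34 to 9.06 in the strains and 5.90 to 6.24 in wildtype. For 48 of the 68 the lowest green value was on the CY262 replicate 3 array, and for 37 the highest was on CY251 replicate 3. Strain and dye cannot be told apart here, because wildtype RNA was always labelled with Cy5.

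The genes that varied most between wildtype channels were mostly highest in replicate 1. Of the 215 genes with an SD of at least 1, 209 were well above background in all 8 channels and saturated in none. Of these 209, all passed the test across numbers, 176 were highest in replicate 1 and 33 were lowest in it, and for 182 replicate 3 lay between. The same measure chose and ordered these genes, so their values are a description.

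The largest spread belonged to *spig-16*, with an SD of 1.81. Its signal was 8.05 and 8.08 in replicate 3, 7.26, 7.09 and 7.17 in replicate 2 and 11.06, 10.87 and 10.93 in replicate 1. The channels of the 3 numbers did not overlap, and replicate 2 was lower than replicate 1 by a log2 difference of -3.78 ± 0.07 (SE, limma). Next came *nas-20*, an astacin-type metalloprotease, with 13.21 and 13.25 in replicate 3, 11.67, 11.63 and 11.60 in replicate 2 and 15.33, 15.23 and 15.22 in replicate 1. Its pattern was the same, with replicate 3 between and an SD within numbers of 0.05. The uncharacterized F44E2.9 had 12.13 and 12.12 in replicate 3, 11.58, 11.46 and 11.54 in replicate 2 and 14.99, 14.83 and 14.87 in replicate 1.

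Genes of different kinds shared this order. The neuropeptide gene *flp-6* had 11.42 and 11.55 in replicate 3, 10.57, 10.43 and 10.61 in replicate 2 and 13.74, 13.91 and 13.72 in replicate 1. For *dpf-2*, of the dipeptidyl peptidase IV family, the values were 11.30 and 11.35 in replicate 3, 10.43, 10.38 and 10.47 in replicate 2 and 13.54, 13.66 and 13.62 in replicate 1. The collagen gene *dpy-14*, which shapes the cuticle, had 11.06 and 10.77 in replicate 3, 9.62, 9.60 and 9.68 in replicate 2 and 12.65, 12.82 and 12.83 in replicate 1. In each, replicate 1 stood above all other channels. Those of the 20 genes with the largest spread that are not given here in full were likewise highest in replicate 1, and include *fipr-13*, related to fungus-induced peptides, *ifa-4*, an intermediate filament, *mdt-10*, a Mediator subunit, and *mrps-33*, a protein of the small mitochondrial ribosomal subunit.

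The order of replicates 3 and 2 was not the same for all of them. For F21D5.4, replicate 3 (9.46 and 9.60) was the lowest, with replicate 2 at 9.78, 9.65 and 9.82 and replicate 1 at 12.55, 12.59 and 12.53. The intestinal cathepsin B-like gene *cpr-1* was instead set apart by replicate 3, at 12.80 and 13.10, against 10.90, 10.91 and 10.77 in replicate 2 and 10.12, 10.42 and 10.51 in replicate 1.

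**Figure D3:**
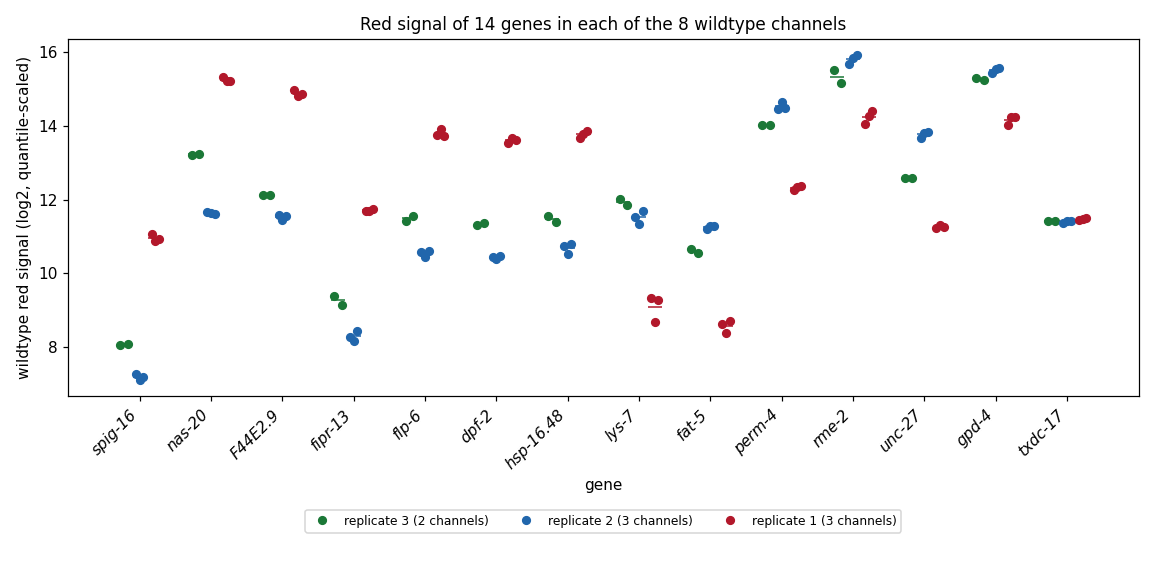
Points are the log2 red signal of 14 genes in each wildtype channel, by replicate number (2 channels of replicate 3, 3 of replicate 2 and 3 of replicate 1), and short lines are the means. Replicate 1 lies above the others from *spig-16* to *hsp-16.48* and below them from *lys-7* to *gpd-4*, while the channels of *txdc-17* lie between 11.37 and 11.49.

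Genes of oocytes and eggshell were higher in replicates 3 and 2 than in replicate 1. Of 31 listed genes, 27 (87.1%) passed the test across numbers, and all 27 were higher in replicate 2 than in replicate 1. Of all genes, 46.0% were called and 23.7% called in that direction. The median signal of the list was 13.09 log2, and 80.8% of all genes from 12 to 14 log2 were called. In replicate 3, 25 of the 27 were higher and 2 lower than in replicate 1. The median difference of the list was 1.24 log2 for replicate 2 and 0.72 for replicate 3, both against replicate 1, beside 0.04 and 0.02 for all genes. Within the *age-1(mg44)*, CY262 and CY251 arrays the median for replicate 2 was 1.21, 1.35 and 1.24.

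Among these genes *perm-4*, which encodes a part of the eggshell permeability barrier, had the largest spread. Its signal was 14.03 and 14.03 in replicate 3, 14.48, 14.65 and 14.48 in replicate 2 and 12.25, 12.35 and 12.38 in replicate 1. The yolk receptor gene *rme-2* had 15.52 and 15.17 in replicate 3, 15.70, 15.85 and 15.93 in replicate 2 and 14.04, 14.28 and 14.40 in replicate 1. Replicate 1 was below every other channel for both. The egg surface genes *egg-1* and *egg-2* and the eggshell genes *cbd-1*, *cpg-1* and *chs-1*, the chitin synthase, followed, with log2 differences of 1.96 ± 0.08, 1.63 ± 0.08, 1.98 ± 0.11, 1.56 ± 0.07 and 1.29 ± 0.05 between replicate 2 and replicate 1 (SE, limma). The replicate 2 spots of *perm-2* and *cpg-2* were saturated, so their differences are lower bounds.

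Genes for maternal RNA-binding proteins differed by unequal amounts. The log2 difference between replicate 2 and replicate 1 was 1.55 ± 0.08 for *mex-5* and 1.51 ± 0.05 for *puf-11*, as large as those of eggshell genes. By contrast, *mex-3* had 11.54 and 11.72 in replicate 3, 12.53, 12.50 and 12.37 in replicate 2 and 11.88, 11.75 and 11.74 in replicate 1, so that replicate 3 did not lie above replicate 1. For *glp-1*, the germline Notch receptor, the log2 difference of replicate 2 against replicate 1 was 0.52 ± 0.11 (adjusted p = 0.0102). The 4 genes that did not pass the test were *mbk-2*, *gld-1*, *cey-2* and *cey-3*, the last 2 of which were saturated in 7 channels each. For *gld-1*, which encodes a translational repressor of the meiotic germline, the log2 difference of 0.30 between replicate 2 and replicate 1 was smaller than its SE of 0.31.

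Muscle and glycolysis genes were likewise mostly higher in replicates 3 and 2 than in replicate 1. Of 20 muscle genes 19 passed the test, beside 46.0% of all genes. Of these, 18 were higher in replicate 2 than in replicate 1, beside 23.7% of all genes called higher. The median difference of the list was 0.94 log2 for replicate 2 and 0.50 for replicate 3, both against replicate 1. When arrays took their samples from the value table, 10 of the 20 were called higher. The list, labelled body wall muscle in the figures, includes *myo-1* and *myo-2*, for myosins of the pharynx, both called higher (0.57 and 0.42). The troponin I gene *unc-27* had 12.58 and 12.58 in replicate 3, 13.68, 13.80 and 13.83 in replicate 2 and 11.22, 11.31 and 11.25 in replicate 1. The major myosin heavy chain gene *unc-54* had 10.01 and 10.06 in replicate 3, 10.94, 10.97 and 11.06 in replicate 2 and 9.30, 9.29 and 9.37 in replicate 1. In both, the 3 numbers were separate and replicate 3 lay between. The exception among those called was *hlh-1*, the MyoD-like regulator that sets muscle fate, at 7.59 and 7.77 in replicate 3, 8.14, 7.91 and 8.20 in replicate 2 and 8.75, 8.85 and 8.94 in replicate 1. The troponin I gene *tni-1* did not pass the test (log2 difference 0.04 ± 0.08). Actin genes are nearly identical, so the probes of *act-1*, *act-2* and *act-4* may read each other's transcripts.

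Of 13 glycolysis genes 12 (92.3%, beside 46.0% of all genes) passed the test and 11 were higher in replicate 2 than in replicate 1, beside 23.7% of all genes. The median difference was 0.74 log2 for replicate 2 and 0.56 for replicate 3. The median signal of the list was 12.70 log2, and 80.8% of all genes from 12 to 14 log2 passed the test. The glyceraldehyde-3-phosphate dehydrogenase gene *gpd-4* had 15.29 and 15.26 in replicate 3, 15.45, 15.55 and 15.57 in replicate 2 and 14.04, 14.26 and 14.24 in replicate 1, and it may share transcripts with its close copy *gpd-1*. The enolase gene *enol-1* had 15.10 and 15.02 in replicate 3, 15.46, 15.44 and 15.45 in replicate 2 and 14.24, 14.19 and 14.25 in replicate 1. The pyruvate kinase gene *pyk-2* was lower in replicate 2 than in replicate 1 (log2 difference -0.45 ± 0.09, adjusted p = 0.0112), on 6 channels, since 2 of its values were left out as outlier spots. Its adjusted p was 0.0693 without the channel of CY251 replicate 1.

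Heat shock protein genes split into 2 directions. Of 23 genes 21 passed the test (91.3%, beside 46.0% of all genes), 8 of them higher and 13 lower in replicate 2 than in replicate 1, where 23.7% of all genes were called higher and 22.3% lower. Those higher included *hsp-60* and *hsp-6*, for chaperones of the mitochondria, *hsp-110*, *hsp-1* and *hsp-90*, for chaperones of the cytosol, and *hsp-4*, the stress-inducible BiP gene of the endoplasmic reticulum. The other BiP gene, *hsp-3*, was lower (log2 difference -0.41 ± 0.05). The *hsp-110* gene, whose product exchanges nucleotide on Hsp70, had 12.04 and 11.88 in replicate 3, 12.54, 12.59 and 12.52 in replicate 2 and 10.96, 10.84 and 11.06 in replicate 1. The log2 difference between replicate 2 and replicate 1 was 1.60 ± 0.08 for *hsp-110*, 1.36 ± 0.06 for *hsp-60*, 1.18 ± 0.10 for *hsp-6* and 1.12 ± 0.07 for *hsp-4*. For *hsp-90* all 3 replicate 2 spots were saturated, so its 0.87 is a lower bound.

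Those lower also included genes of the small heat shock proteins, although *hsp-12.2*, also of this family, was called higher (log2 difference 0.50). The small heat shock protein gene *hsp-16.48* had 11.55 and 11.39 in replicate 3, 10.74, 10.51 and 10.80 in replicate 2 and 13.67, 13.78 and 13.88 in replicate 1. For *hsp-16.1* the values were 10.05 and 9.71 in replicate 3, 9.05, 9.05 and 9.31 in replicate 2 and 11.35, 11.54 and 11.67 in replicate 1. The inducible Hsp70 gene *hsp-70* had 9.24 and 9.31 in replicate 3, 9.37, 9.14 and 9.33 in replicate 2 and 10.78, 10.69 and 10.72 in replicate 1. No channel of replicates 3 or 2 reached those of replicate 1 for any of these genes. The log2 difference of replicate 2 against replicate 1 was -3.13 ± 0.11 for *hsp-16.41*, on 7 channels after 1 outlier spot was left out, -1.78 ± 0.08 for *hsp-16.2*, -2.28 ± 0.05 for *hsp-43* and -1.74 ± 0.10 for F44E5.4, of the Hsp70 family. The *hsp-16* genes come in near-identical pairs, so these are not separate readings of each gene. Neither *hsp-25* (0.06 ± 0.14) nor *hsp-16.20* (-0.09 ± 0.08) passed the test.

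**Figure D4:**
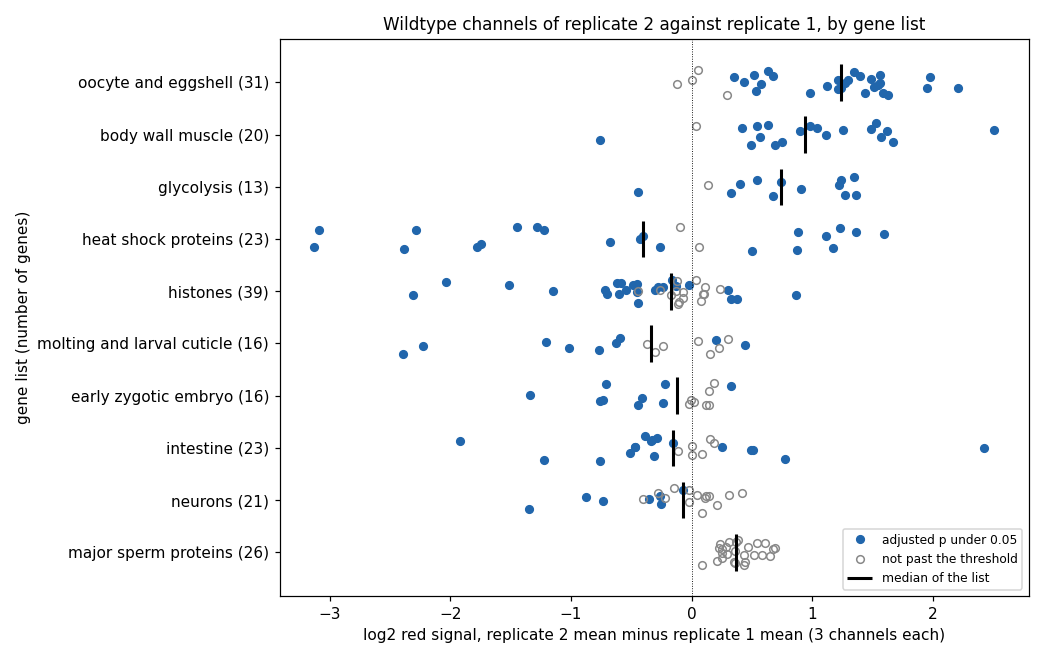
Each point is 1 gene, placed at its log2 difference between the means of replicate 2 and replicate 1 (3 channels each); filled points passed the limma F test across numbers (adjusted p under 0.05), open points did not, and vertical bars are list medians. Oocyte, muscle and glycolysis medians lie at 1.24, 0.94 and 0.74, heat shock genes spread to both sides, and none of the 26 major sperm protein genes is filled.

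Called histone genes were mostly lower in replicate 2 than in replicate 1. Of 39 histone genes 24 passed the test (61.5%, beside 46.0% of all genes), 20 of them lower and 4 higher, beside 22.3% and 23.7% of all genes. The median signal of the list was 11.74 log2. Its share was below the 69.6% of all genes from 10 to 12 log2. The linker histone gene *his-24* had 10.76 and 10.52 in replicate 3, 9.90, 9.93 and 10.10 in replicate 2 and, in replicate 1, 12.22 and 12.36 on the 2 channels without an outlier spot. The *his-37* gene for histone H4 had 10.22 and 10.04 in replicate 3, 10.19, 10.10 and 10.35 in replicate 2 and 12.09, 12.32 and 12.33 in replicate 1. Core histone genes are present in many near-identical copies, and *his-6* had the opposite sign (0.86 ± 0.09).

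Of 16 molting and larval cuticle genes 9 passed the test, a share close to the 46.0% of all genes, and 7 of them were lower in replicate 2 than in replicate 1, beside 22.3% of all genes. The gene for the apical matrix protein *noah-2* had 8.86 and 8.84 in replicate 3, 8.16, 8.26 and 8.39 in replicate 2 and 10.72, 10.57 and 10.70 in replicate 1. That for the metalloprotease *nas-37*, which digests the old cuticle, had 8.80 and 8.77 in replicate 3, 8.30, 8.52 and 8.39 in replicate 2 and 10.55, 10.74 and 10.61 in replicate 1. Replicate 1 was above all other channels in both. The *nekl-3* kinase gene, needed to complete molting, had the opposite sign (0.44 ± 0.07), and *mlt-10*, *nhr-23*, *nas-36* and *qua-1* did not pass the test. Cuticle collagens showed no shared direction. Of 167 collagen genes, 78 passed the test (46.7%, beside 46.0% of all genes), 49 higher and 29 lower in replicate 2 than in replicate 1.

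The remaining tissue lists were mixed or moved little. Of 16 genes listed for the early zygotic embryo 9 passed the test (beside 46.0% of all genes). Of these, 8 were lower in replicate 2 than in replicate 1 (beside 22.3%), led by the T-box gene *tbx-37* at -1.34 ± 0.10. Of 21 neuronal genes 7 (33.3%) passed it, a share below that of all genes, and all 7 were lower, led by *unc-64*, the neuronal syntaxin, at -1.34 ± 0.11, while *snb-1*, the synaptobrevin, had -0.15 ± 0.10 (adjusted p = 0.323). When arrays took their samples from the value table, 5 embryonic and 4 neuronal genes were called lower. The medians of both lists, -0.12 and -0.07, were above 0 at 0.03 and 0.02 when the raw signal was divided by the array mean, which moved all genes by 0.16.

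Of 23 intestinal genes 17 passed the test (73.9%, beside 46.0% of all genes), 12 lower and 5 higher in replicate 2 than in replicate 1, beside 22.3% and 23.7% of all genes. The median signal of the list was 11.65 log2. Its share was near the 69.6% of all genes from 10 to 12 log2. The metallothionein genes *mtl-1* and *mtl-2*, which bind metals, were lower by log2 differences of -1.92 ± 0.09 and -1.22 ± 0.11. The lysozyme gene *lys-7* had 12.01 and 11.86 in replicate 3, 11.51, 11.33 and 11.70 in replicate 2 and 9.31, 8.67 and 9.28 in replicate 1, the reverse order. The GATA factor gene *elt-2* and the intestinal filament gene *ifb-2* differed by 0.18 ± 0.07 and 0.01 ± 0.07 and did not pass the test.

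Of 338 F-box genes, 186 passed the test, of which 156 were lower and 30 higher in replicate 2 than in replicate 1, beside 46.0% called, 22.3% called lower and 23.7% called higher of all genes, with a median of -0.20 log2. With the raw signal divided by the array mean that median was 0.06, against 0.16 for all genes. The largest spread in this family was that of *fbxb-84*, with 9.45 and 9.56 in replicate 3, 8.42, 8.38 and 8.56 in replicate 2 and 11.08, 10.92 and 10.95 in replicate 1. Of 268 nuclear hormone receptor genes 75 passed the test, a smaller share than the 46.0% of all genes, and 63 of them were lower in replicate 2 (39 without the channel of *age-1(mg44)* replicate 1), which is close to the 22.3% of all genes. Of 91 genes for antimicrobial peptides, lysozymes and saposin-like proteins 61 (67.0%) passed it, 44 of them lower, or 14 when arrays took their samples from the value table. The medians of both lists, -0.03 and -0.21, were 0.10 and 0.02 when the raw signal was divided by the array mean. Of 77 ribosomal protein genes 32 (41.6%) passed the test, 30 of them higher in replicate 2, with a median of 0.03. Most of their spots were saturated, and their counts rested on the scaling, with 64 higher after scaling to the 75th percentile.

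The major sperm protein genes did not follow the replicate numbers. These genes encode the cytoskeletal protein of nematode sperm, are nearly identical in sequence and cannot be read separately. None of the 26 passed the test across numbers, beside 46.0% of all genes, although the median SD of the list, 0.72 over the 8 channels, was above the 0.20 of all genes. Within numbers the median SD was 0.82, and 12 of the 20 genes with the largest SD within numbers were major sperm protein genes.

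Their wildtype signal moved instead with the strain signal of the same array. In green, 18 of the 26 genes were saturated on at least 1 array, so their order there cannot be read. For the *msp-40* gene, unsaturated in green on all arrays, the green signal of the strains was 12.55 and 14.68 on the CY262 and CY251 arrays of replicate 3, 12.95, 14.62 and 13.89 on the *age-1(mg44)*, CY262 and CY251 arrays of replicate 2 and 12.73, 13.62 and 14.07 on those of replicate 1. Its wildtype red signal on the same spots was 8.38 and 9.51 in replicate 3, 8.47, 9.77 and 8.90 in replicate 2 and 8.30, 8.78 and 8.98 in replicate 1. Of the 8 genes with no saturated green spot, 6 had the same order of arrays within each number in green as in red. The median of the 26 genes in green ran from 14.22 to 15.97, close to the ceiling, and in red from 9.16 to 11.18, with CY262 replicate 3 the lowest array in both. The share of the strain signal in the wildtype reading was not tested.

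The same was seen at *fbxa-195*, an F-box gene. In the strains its green signal was 12.98 and 6.17 on the CY262 and CY251 arrays of replicate 3, 6.74, 6.11 and 12.46 on the *age-1(mg44)*, CY262 and CY251 arrays of replicate 2, and 6.11, 12.91 and 6.14 on those of replicate 1. Its wildtype red signal on the same arrays was 8.52 and 6.42 in replicate 3, 6.79, 6.59 and 7.92 in replicate 2 and 6.44, 8.04 and 6.36 in replicate 1. The 3 arrays with a high green value are thus those with a red value above 7.9, among them the CY251 replicate 2 array whose file is named for the intestine-restricted strain. The collagen gene *col-162* gave red values of 8.76 on CY251 replicate 2 and 8.56 on CY262 replicate 1, against 6.80 to 7.25 on the other arrays, and its green values of 13.57 and 13.74 on these 2 arrays were also the highest.

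**Figure D5:**
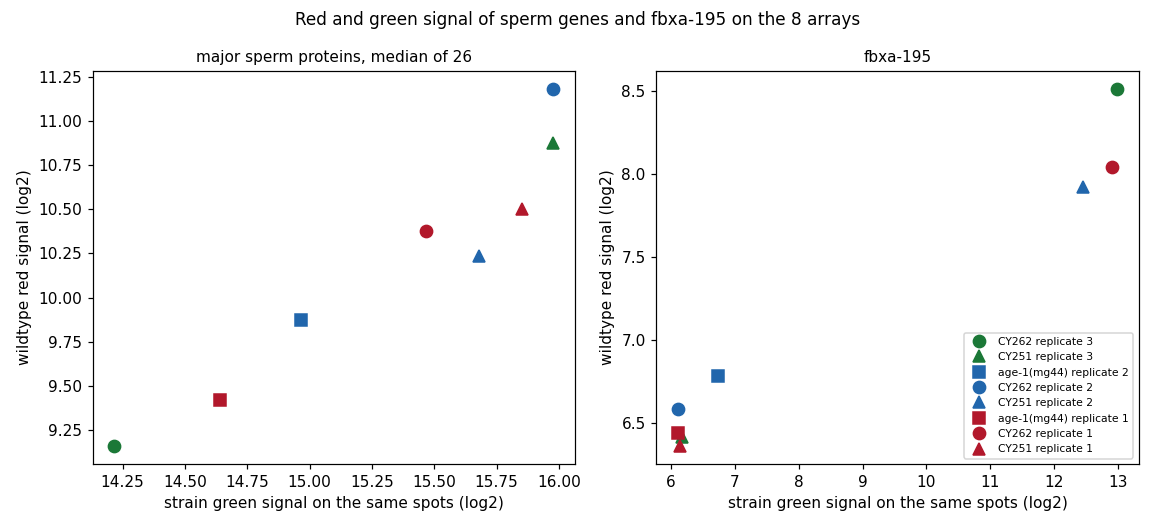
Wildtype red against strain green log2 signal on the same 8 arrays, for the median of 26 major sperm protein genes (left) and for *fbxa-195* (right); the shape marks the strain and the colour the replicate number. The highest green medians are close to the ceiling. On the left both signals are lowest on CY262 replicate 3 (14.22 in green and 9.16 in red), and on the right the 3 arrays with green signal above 12 have red signal of 7.92 to 8.52, against 6.36 to 6.79 on the others.

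Large differences between the strain signals were found for few of the genes compared here. These were genes well above background in all 8 red channels and saturated in none of them. Genes dim or undetected in red, such as the 68 with green signal only, were left out. Pairs of wildtype channels with the same number were compared gene by gene, as the strain signals on those arrays differed by more or less. Each wildtype difference was counted as positive where it had the sign of the strain difference, and as negative otherwise. Where the strain signals differed by under 0.5 log2, the median of these signed wildtype differences was 0.07 log2. The signs were the same in 68.0% of 89135 comparisons. Where the strain signals differed by 3 log2 or more, in 112 comparisons of 60 genes, the signed median was 0.38 log2, with the same sign in 85.7%. The red values of the chemoreceptor gene *srg-23* went apart within numbers with no such difference in green. It had 7.95 and 7.81 in replicate 3, 9.31, 7.01 and 8.45 in replicate 2 and 8.44, 6.87 and 6.92 in replicate 1, while its green signal was 6.49 to 7.07. The gene was chosen after its values were seen.

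At the other extreme, the 5 genes with the smallest SD among genes above the median signal were *txdc-17*, a thioredoxin-domain protein, Y105C5B.26, *jhdm-1*, a histone demethylase, ZC308.4 and F39B2.5. The signal of *txdc-17* was 11.41 and 11.41 in replicate 3, 11.37, 11.42 and 11.41 in replicate 2 and 11.45, 11.46 and 11.49 in replicate 1. Its SD of 0.04 was below the median of 0.16 for probes averaged over 10 copies on each array. With the raw signal divided by the array mean its SD was 0.06.

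Genes of the *age-1* pathway and its targets also differed between wildtype channels. Of 22 listed genes, 15 passed the test across numbers (68.2%, beside 46.0% of all genes), 8 of them higher and 7 lower in replicate 2 than in replicate 1. The median signal of the list was 10.07 log2. Its share was near the 69.6% of all genes from 10 to 12 log2. Some of the targets were named by the study from these arrays, so the list is no independent evidence of a direction. The *age-1* gene itself had 9.30 and 9.28 in replicate 3, 9.61, 9.58 and 9.71 in replicate 2 and 8.56, 8.39 and 8.54 in replicate 1. Replicate 2 was higher than replicate 1 by 1.14 ± 0.07 log2 (adjusted p = 1.53e-05), and the 3 numbers did not overlap. Of its upstream and downstream partners, *akt-1*, a kinase activated by PI3K, differed by 0.48 ± 0.06, while *daf-2*, the insulin receptor (0.24 ± 0.29), *akt-2* (0.16 ± 0.18) and *daf-16*, the FOXO factor (0.37 ± 0.18), did not pass the test. The heat shock factor gene *hsf-1* was higher in replicate 2 by 0.68 ± 0.11 log2.

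Target genes varied by more. The fatty acid desaturase gene *fat-5* had 10.66 and 10.56 in replicate 3, 11.19, 11.27 and 11.27 in replicate 2 and 8.62, 8.38 and 8.71 in replicate 1. The cytochrome P450 gene *cyp-35B1* had 8.38 and 8.59 in replicate 3, 7.95, 7.76 and 7.98 in replicate 2 and 6.86, 6.55 and 6.52 in replicate 1. Both were lowest in replicate 1, and *cyp-35B1* was highest in replicate 3. The superoxide dismutase gene *sod-3* differed from replicate 1 by 0.07 ± 0.11 log2 in replicate 3 and by -0.69 ± 0.10 log2 in replicate 2 (adjusted p = 0.000715), so that replicate 2 was apart from both. The *acs-2*, *lipl-4*, *clec-4* and *clec-13* genes did not pass the test, with differences between replicate 2 and replicate 1 of -0.15 to 0.21 log2.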

How the data were processed

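Per the file headers, the authors read the arrays with Agilent Feature Extraction A.7.5.1, and the deposited intensity values are the mean signal of each spot, its local background and a processed signal, for each dye. The deposited log10 ratios of red to green in the value table were used only to see which array each column holds: 4 columns equal another array's ratios (100% of 16775 values, tolerance 1e-05). Red intensity was corrected by normexp (offset 50, limma 3.58.1, R 4.3.3), log2-transformed and quantile-scaled over the 8 red channels, without control and outlier spots. Each gene was represented by its brightest probe. The 18877 genes came from 20401 probes, of which 564 were left out for want of a sequence name. By name, 18132 genes were matched to RefSeq WBcel235. Detection and saturation are the software's flags. The number of arrays limits the precision.

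Channels were compared across partner strains and across replicate numbers by limma F tests over all genes, with Benjamini-Hochberg adjusted p under 0.05, and the code was tested on simulated data. Each gene's direction is the sign of its difference between number means. No test was made of replicate 2 against replicate 1 alone. An adjusted p printed beside a difference is that of the F test across numbers. Same-numbered channels deviate together (r of 0.59 to 0.85 for all 7 pairs), so the numbers pair the channels. This pairing rests on the data, since the labels do not name shared RNA. Genes named were the brightest, the undetected ones with green signal, the 20 of largest and 5 of smallest SD, those of smallest p, and those opening or closing a list by signal or SD, with other members of lists and classes as examples, chosen after their values were seen. Members and lists were chosen with earlier results of these data known. Serpins and other genes that only share the letters of a family prefix were later removed from the chemoreceptor and collagen lists. Each array lay on its own slide, so no slide effect could be tested. The array of CY262 replicate 2 alone was extracted on another day, and without it 8289 genes passed the test across numbers. Alternatives varied the background correction, scaling, detection rule, probe choice, outlier spots, variance model, blocks and array assignment, and left out each array.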

Additional observations from a re-analysis of the deposited data

Results flagged for a closer look

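For 131 named genes with values in all 8 wildtype channels, the gap between the most extreme channel and its nearest neighbour was compared with Dixon's critical value. It was exceeded by 2 genes. The critical value allows about 1 in 20 only for independent channels of 1 group, and these channels group by replicate number. The count is therefore a description. The neuronal gene *rgef-1* was highest in the wildtype channel of *age-1(mg44)* replicate 2, at 6.17 log2 against 6.05 for the nearest channel. The ribosomal protein gene *rpl-42* was lowest in that of CY251 replicate 1, at 5.98 against 6.10. Neither probe rose clearly above background, *rgef-1* being well above it in 0 channels and *rpl-42* in 1.

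The green channel, which the wildtype comparisons do not use, was well above background on all 8 arrays for 68 genes that were so in no wildtype channel. The part of dye and of strain in this was not tested, since the dyes were not swapped.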

How the results depend on the processing

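The partner test called 0 genes under all alternatives run, the replicate block included (1039 genes at an unadjusted p under 0.05, against 165 without it). Exchanging the 2 arrays by their file names leaves the numbers as they are. That exchange was not combined with the block. Across replicate numbers, the count of 8683 was 7474 to 8914 with 1 array left out and 5061 when arrays took their samples from the deposited value table (7145 unadjusted). Under that assignment fewer list members were called, with 10 muscle genes higher in replicate 2 than in replicate 1. Called lower were 39 nuclear hormone receptor, 14 antimicrobial, 4 neuronal and 5 early embryonic genes. With the signal divided by the array mean, 69 ribosomal protein genes were higher (64 with 75th percentile scaling), and 26 nuclear hormone receptor and 3 neuronal genes lower. The nuclear hormone receptor count was 39 to 66 with 1 array left out, the lowest without *age-1(mg44)* replicate 1.

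The median SD was 0.298 from the processed signal and 0.104 without background subtraction. Genes with an SD of at least 1 numbered 411 from the processed signal, 345 with plain subtraction, 99 without subtraction, 110 with the signal divided by the array mean, and 170 to 267 with 1 array left out. Of the 100 genes of largest SD, 65 were shared with the processed signal. Genes detected in no channel numbered 92 by the software's test of positive signal and 52 against the negative control spots. Of 93 named genes that passed the test across numbers, 16 lost the threshold under at least 1 alternative, and 0 changed sign. When arrays took their samples from the value table, 15 of the 93 lost it. The threshold was also lost by *spn-4* with 75th percentile scaling (adjusted p = 0.0985) and by *fbxc-50* without CY251 replicate 3 (adjusted p = 0.0537).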

Other observations

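Called detoxification genes were more often lower than higher in replicate 2 than in replicate 1, by little for cytochrome P450 genes. Of 74 cytochrome P450 genes 46 passed the limma test across replicate numbers, 20 of them higher and 26 lower in replicate 2 than in replicate 1, where 46.0% of all genes were called, 23.7% higher and 22.3% lower. Of 65 UDP-glucuronosyltransferase genes 35 passed it (10 higher and 25 lower). Of 44 glutathione S-transferase genes 23 passed it (7 higher and 16 lower by sign), a share of 52.3%, close to that of all genes. The 16 include *gst-39* and *gst-42*, with differences of only -0.01 and -0.02 log2. The median differences of the lists, in this order, were 0.03, -0.14 and -0.05 log2, beside 0.04 for all genes. With the raw signal divided by the array mean they were 0.15, -0.005 and 0.08, beside 0.16 for all genes. The largest spread in each family was again at genes that were highest in replicate 1. The *cyp-35A5* gene had 7.46 and 7.47 log2 in replicate 3, 7.61, 7.49 and 7.65 in replicate 2 and 9.52, 9.19 and 9.32 in replicate 1. For *ugt-62* the values were 11.25 and 11.42 in replicate 3, 10.82, 10.77 and 10.81 in replicate 2 and 12.73, 12.63 and 12.61 in replicate 1. The glutathione S-transferase gene *gst-5* had 10.69 and 10.77 in replicate 3, 9.79, 9.78 and 9.77 in replicate 2 and 11.59, 11.51 and 11.51 in replicate 1.

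Of 237 C-type lectin genes 81 (34.2%) passed the test, 31 of them higher and 50 lower in replicate 2, which is no larger a share than the 46.0% called and 22.3% called lower of all genes, and the list's largest spread was at a gene highest in replicate 1, *clec-178*, with 8.99 and 9.02 in replicate 3, 8.65, 8.56 and 8.77 in replicate 2 and 10.82, 10.49 and 10.66 in replicate 1. Of 24 insulin-like peptide genes 8 (33.3%) passed it, 4 in each direction. The *ins-3* gene had 7.83 and 7.93 in replicate 3, 7.36, 7.43 and 7.51 in replicate 2 and 9.33, 9.20 and 9.29 in replicate 1. Of 30 FMRFamide-like peptide genes 16 (53.3%) passed it, 6 higher and 10 lower.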
